A study of Mus musculus with 38 samples.

Results

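Enteroendocrine cells are the hormone-secreting cells of the gut epithelium, and the 10 genes described here are transcripts by which they are known: the granule proteins Chga and Chgb, the serotonin-synthesis enzyme Tph1, the transcription factor Neurod1, and the hormone precursors Gcg, Pyy, Insl5, Cck, Nts and Sst. They were taken as a list of symbols, matched to Ensembl identifiers in 3 tables of read counts, and all 10 were found among the 55416 gene identifiers of each table. The 38 libraries were bulk RNA sequencing of mouse intestinal tract, from mice described as having colorectal cancer. Titles with Apc (the Apc set) marked 18 libraries, 3 in each of the groups black rice F, black rice M, control F, control M, WT F and WT M. Titles with AOM (the AOM set) marked 12 libraries, 3 in each of the same groups other than WT. The third set had 4 libraries with the treatment label black rice and 4 with control, and no code. Its table carried the letters FMT, which no label explained, so how these mice received black rice is not known here, and black rice against control is called diet below by the label alone.

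The labels did not explain Apc, AOM, WT, F or M, gave WT libraries no diet, and named no strain, allele, age, dose or feeding time. The Apc columns carried the word Colon, and the other columns named no segment. No label said that libraries of a group came from separate mice, so p-values measure the spread between these libraries, part of which may be technical. Each Apc library had 44.8 to 61.9 M counted reads, 11 of the AOM libraries had 37.9 to 55.1 M, and those of the third set had 66.6 to 91.1 M. The remaining AOM library, black rice F replicate 3, had 5.37 M reads and holds liver transcripts. All 10 genes lay between 0 and 4.65 CPM in it (CPM, the read count of a gene scaled to the total of its library), and it was left out of the values below. The intestinal label was checked against epithelial genes such as Epcam, Vil1 and Cdx2: 10 of them together lay between 6471 and 14894 CPM in the other 37 libraries.

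Enteroendocrine cells arise from crypt progenitors under Neurog3 and then Neurod1, and branch into types that are named by their main product. Enterochromaffin cells make serotonin with Tph1. L cells make Gcg, the precursor of glucagon-like peptides, together with Pyy, and in the colon many also make Insl5. Cck and Nts are made mainly in the small intestine, and Sst by D cells that inhibit their neighbours. Sst, Cck, Nts and the granule proteins are also transcribed in neurons, and Gcg, Pyy, Sst and the granule proteins in pancreatic islets.

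Islet transcripts were close to absent. Ins1 and Ins2, which encode insulin, were at 0 in all 18 Apc libraries and reached at most 0.0846 and 0.0126 CPM in any library of the other sets. The 7 islet markers summed to between 1.3 and 25.6 CPM in the Apc set, of which Ppy, a hormone that colon endocrine cells also make, was between 1.23 and 23.9 CPM. The sums were between 1.05 and 28.8 CPM in the AOM set and between 2.51 and 6.82 CPM in the third set. Enteric neuron transcripts were present in every library: 13 markers summed to 125 to 277 CPM in the Apc set, 42.8 to 389 CPM in the AOM set and 95.6 to 412 CPM in the third set. In bulk tissue, fewer cells of a type and less RNA per cell cannot be told apart.

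Corrected for transcript length, Insl5, Pyy and Gcg stood at the head of the list in the Apc set, with medians over libraries of 137, 75.6 and 60.02 CPM per kb of exon. Chgb followed at 43.7, Sst at 36.6 and Chga at 25.02 CPM per kb. The remaining members were far lower, with Tph1 at 3.34, Neurod1 at 1.84, Cck at 1.45 and Nts at 0.417 CPM per kb. Ranges over libraries did not overlap between Chga (17.7 to 49.2 CPM per kb) and Tph1 (1.94 to 7.57 CPM per kb), and did between all other neighbours in this order. Among AOM libraries Pyy led with 95.1 CPM per kb, before Insl5 at 49.4 and Sst at 48.4 CPM per kb. Sst led in the third set with 75.4 CPM per kb, before Pyy at 67.9 and Gcg at 42.8 CPM per kb. Nts, last in the Apc set, was the seventh in the other sets, at 3.52 and 12.97 CPM per kb. Exon lengths came from GENCODE M21, another annotation than the one counted, and the tables were processed separately, so orders are given within a set.

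**Figure D1:**
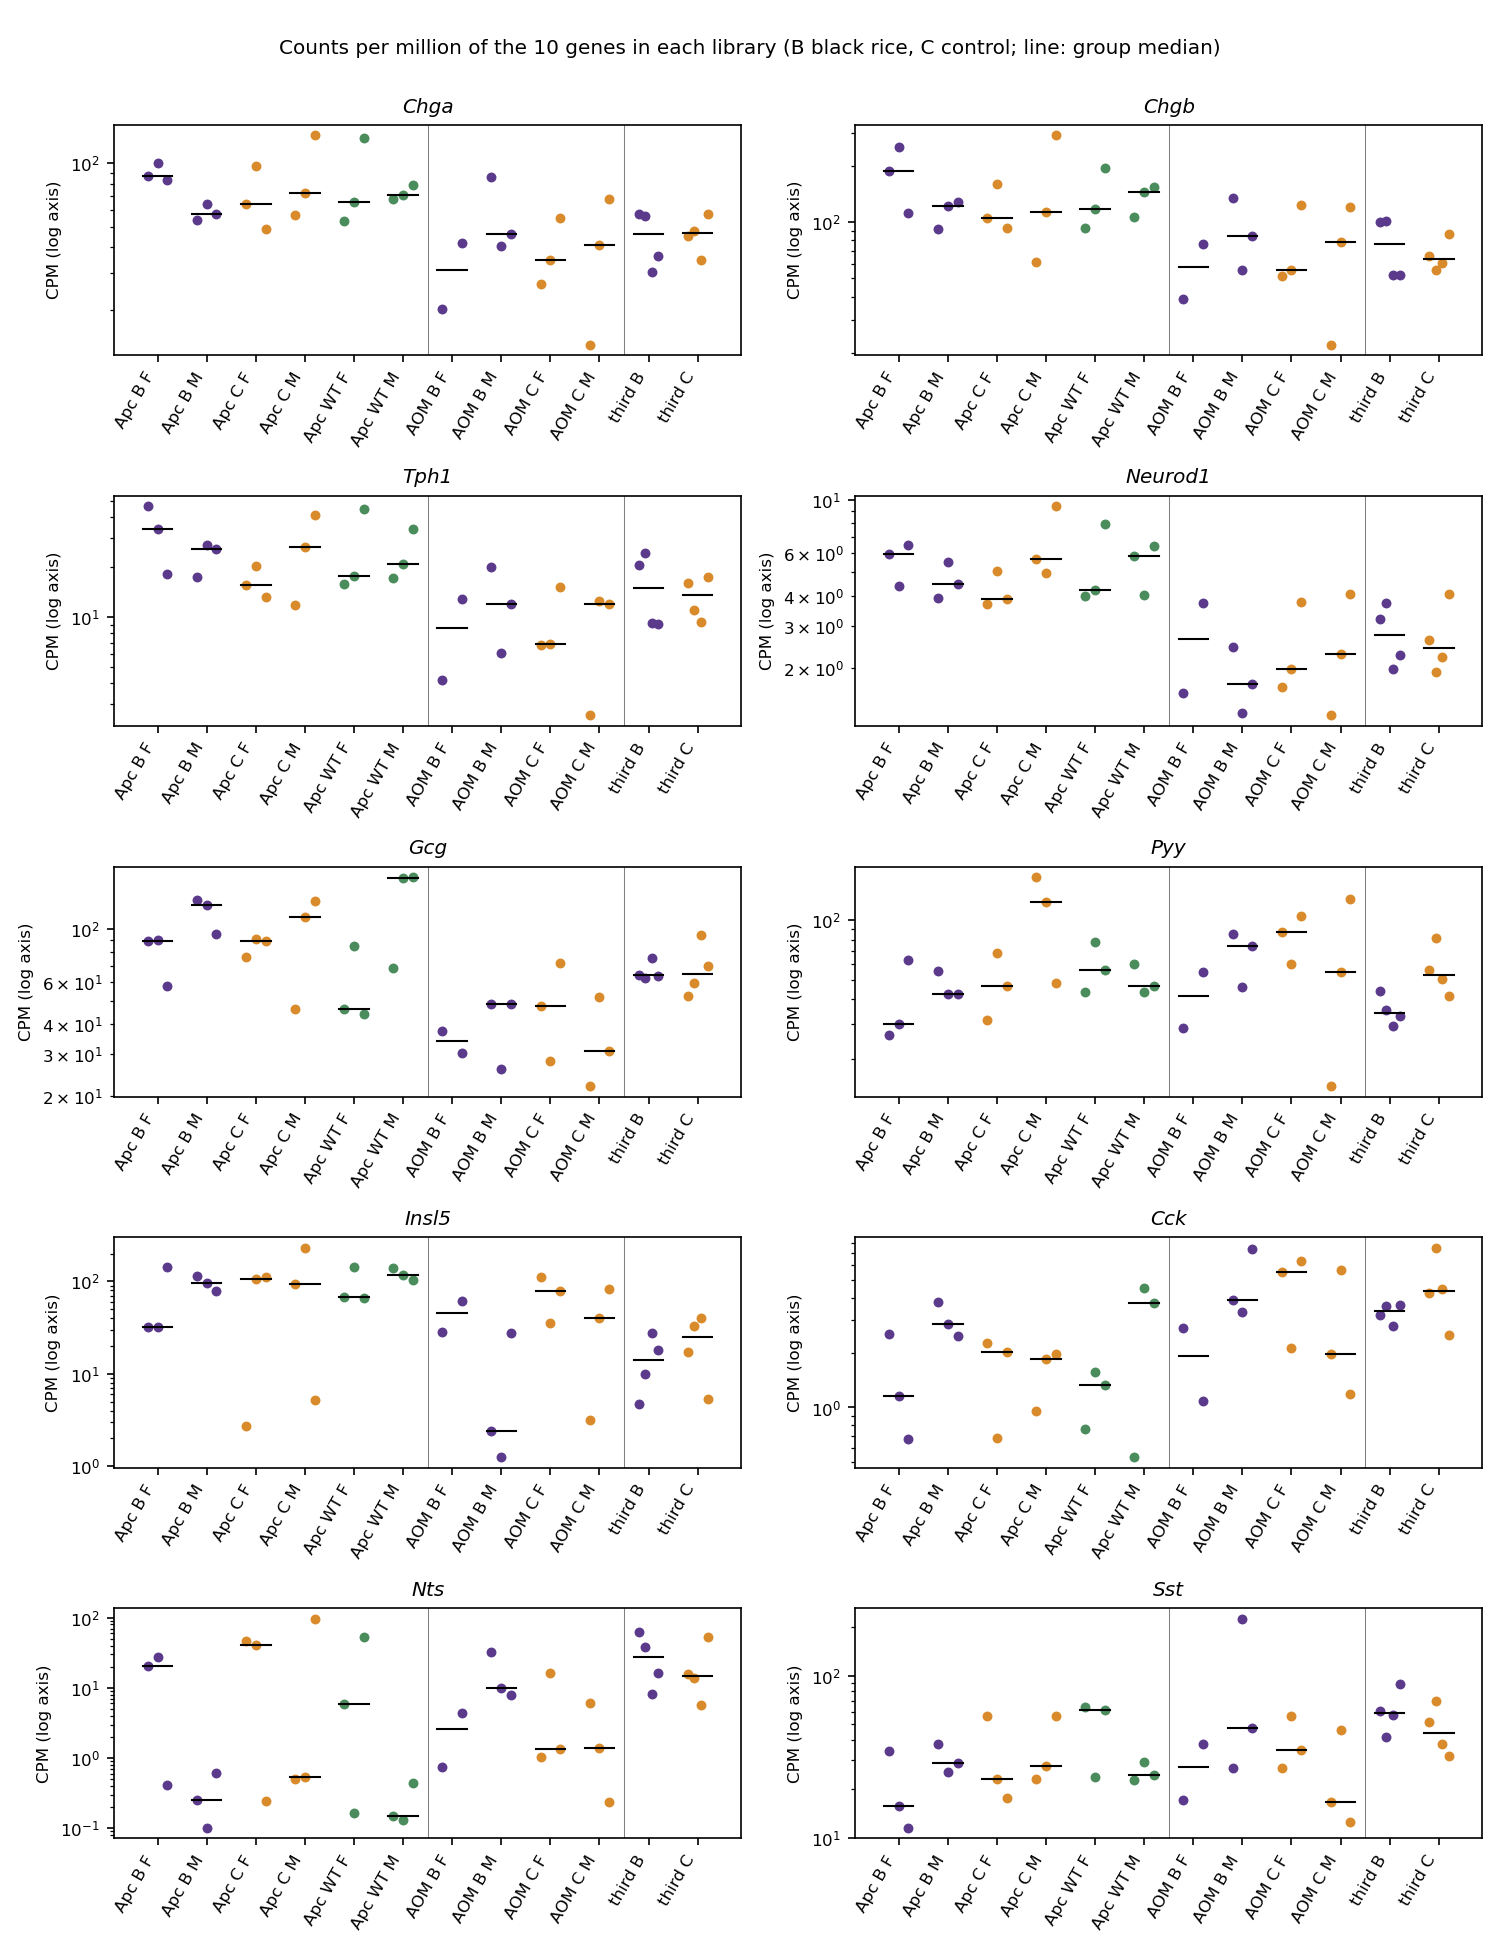
CPM of each gene on a log axis in every library used, by set, arm (B black rice, C control, WT) and code (F, M). Points are libraries and lines are group medians. Nts runs from 0.101 to 96.8 CPM in the Apc set and Neurod1 only from 3.68 to 9.4 CPM.

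The members differed widely in how much they varied between libraries. The ratio of the highest to the lowest library was 958 for Nts and 84.1 for Insl5 in the Apc set, 139 and 88.8 in the AOM set, and 11.1 and 8.5 in the third set. For Neurod1 it was 2.56, 3.21 and 2.11. The spread within groups that edgeR estimated for Nts was exceeded by 0.324% of the 21624 genes tested in the Apc set, by 2.16% of 21895 in the AOM set and by 0.931% of 20831 in the third set. For Insl5 these shares were 3.69%, 3.84% and 1.45%. For the other 8 members, 12.6% to 49.8% of genes had a larger spread in the Apc set.

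The study compared black rice with control diet, and no member passed the threshold for it in any set. The threshold was a Benjamini-Hochberg adjusted p of 0.05 over all genes in edgeR's quasi-likelihood test, and 0 of 10 members were called in each of 13 comparisons of arm, code and their interaction. Few genes of any kind were called. The share was 0.0139% of 21624 genes for black rice against control in the Apc set, 0% in its F libraries, 0.0324% in its M libraries and 0% for the difference between codes. It was 0% for control against WT, 0.0139% for black rice against WT and 0.074% for F against M in the Apc set. In the AOM set it was 0% for diet, for diet within F, within M and for their difference, and 0.0365% for F against M, and in the third set it was 0%. At an unadjusted p under 0.05, 12 of the 130 member differences passed (9.23%), and over all genes that share ran from 3.06% to 15.1% by comparison. DESeq2, run as an alternative, called 1 member within Apc M and 2 for Apc F against M, named below, and 3 to 512 genes of any kind by comparison. In the comparisons with 0 calls by edgeR, some genes had an unadjusted edgeR p under 0.05. They numbered 2215, 1923 and 918 for diet within F, its difference between codes and control against WT in the Apc set. They numbered 671, 716, 3019 and 3063 for AOM diet, within F, within M and their difference, and 1653 in the third set.

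**Figure D2:**
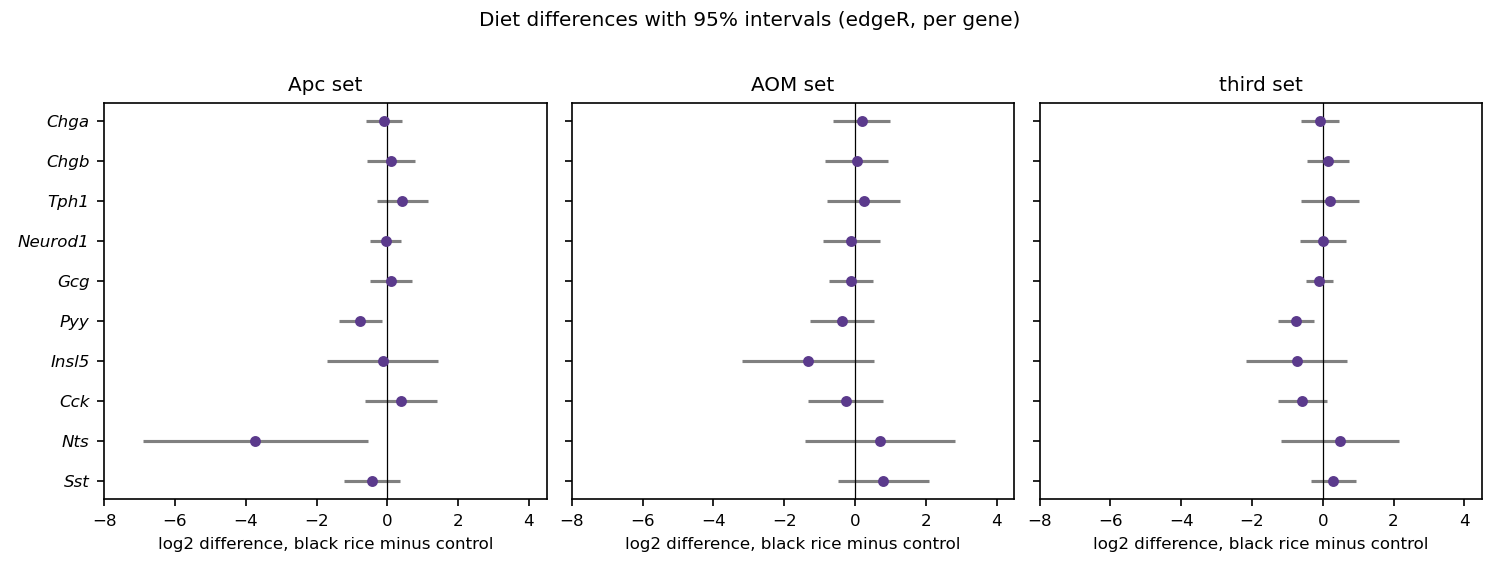
Log2 difference of black rice minus control for each gene in each of the 3 sets, fitted by edgeR. Points are estimates and bars their 95% intervals without adjustment for the number of genes. Intervals of Nts and Insl5 are widest, and the estimates of Pyy and Insl5 lie left of 0 in all 3 panels.

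Pyy, the peptide YY precursor that slows gut transit, gave the lowest unadjusted p of the members for diet in the Apc set (0.0169) and in the third set (0.0086). In the Apc set it was at 26.4, 30.1 and 62.8 CPM in black rice F, 55.6, 42.6 and 42.7 CPM in black rice M, 31.5, 68.7 and 46.9 CPM in control F, and 165, 124 and 48.4 CPM in control M. WT libraries were at 43.4, 78.1 and 56.2 CPM in F and 60.4, 43.5 and 46.5 CPM in M. The highest values were thus control M replicates 1 and 2, and black rice and control libraries overlapped. Black rice minus control was -0.76 ± 0.28 (log2, SE; 43.4 ± 14.1 against 80.7 ± 52.3 CPM, SD, n = 6 and 6), with an edgeR adjusted p of 0.397. It was -0.31 ± 0.4 (adjusted p = 0.83) within F and -1.21 ± 0.4 (adjusted p = 0.429) within M, and the difference between the codes was 0.89 ± 0.57 (adjusted p = 0.686).

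In the third set Pyy was at 44.2, 35.4, 29.5 and 32.8 CPM in black rice and 56.2, 81.8, 50.4 and 41.5 CPM in control. Here 3 of 4 black rice libraries lay below every control library. The difference was -0.76 ± 0.23 (log2, SE), with an edgeR adjusted p of 0.522, and it was between -0.9 and -0.51 when single libraries were left out. The 95% interval ran from -1.27 to -0.24 in the third set, from -1.36 to -0.16 in the Apc set and from -1.27 to 0.53 in the AOM set. Both AOM black rice F libraries (28.7 and 54.7 CPM) lay below the 3 control F libraries (59.98 to 105 CPM). The M libraries overlapped there, at 46 to 84.9 CPM and 14.6 to 127 CPM. Black rice minus control in the AOM set was -1.005 ± 0.62 (log2, SE; edgeR adjusted p = 0.985) within F and 0.26 ± 0.54 (adjusted p = 0.835) within M. The summed epithelial markers of the third set were lower in black rice (11322 to 12497 CPM) than in control (13057 to 14894 CPM), without overlap. With their mean level as a covariate the Pyy difference was -0.65 (edgeR adjusted p = 0.997) in the third set, -0.83 (adjusted p = 0.244) in the Apc set and -0.1 (adjusted p = 1) in the AOM set. The AOM value joins -1.34 within F and 1.13 within M (adjusted p = 0.968 and 0.911). In the third set, where the sums did not overlap, diet and epithelial level cannot be told apart.

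Gcg was at 89, 90.3 and 58 CPM in black rice F of the Apc set, 132, 126 and 95.5 CPM in black rice M, 76.4, 91.2 and 89 CPM in control F, and 46.2, 113 and 131 CPM in control M. WT libraries were at 46.3, 85 and 44.1 CPM in F and 68.4, 164 and 165 CPM in M, so that the 2 highest libraries carried no diet label. In the third set it was at 64.1, 62.3, 76.1 and 63.9 CPM in black rice and 52.2, 59.6, 94.6 and 69.8 CPM in control, and the AOM libraries ranged from 21.9 to 72.5 CPM. The diets overlapped in each set, and the difference of black rice minus control was 0.1 ± 0.28 in the Apc set, -0.1 ± 0.28 in the AOM set and -0.1 ± 0.17 in the third set (log2, SE), with edgeR adjusted p of 0.922, 1 and 0.906. The intervals ran from -0.49 to 0.7, -0.73 to 0.52 and -0.48 to 0.28. Between codes in the Apc set, F libraries had 74.4 ± 19.5 CPM and M libraries 116 ± 40.2 CPM (SD, n = 9 and 9). F libraries ranged from 44.1 to 91.2 CPM and M libraries from 46.2 to 165 CPM. F minus M was -0.77 ± 0.23 (log2, SE; edgeR adjusted p = 0.17, DESeq2 adjusted p = 0.0461) in the Apc set and 0 ± 0.29 (adjusted p = 1) in the AOM set.

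Cck, the satiety hormone cholecystokinin, was scarce, at 0.535 to 4.53 CPM in the Apc set, 1.08 to 7.39 CPM in the AOM set and 2.51 to 7.49 CPM in the third set. In Apc M libraries black rice was at 3.78, 2.85 and 2.47 CPM and control at 0.959, 1.84 and 1.95 CPM. These groups did not overlap, and the difference was 0.98 ± 0.68 (log2, SE; edgeR adjusted p = 0.716). WT M libraries spanned both, at 0.535, 4.53 and 3.75 CPM. Apc F libraries overlapped between diets, with a difference of -0.2 ± 0.68 (adjusted p = 0.948). Over both codes it was 0.39 ± 0.48 (adjusted p = 0.806). In the AOM set black rice minus control was -0.26 ± 0.48, which joins -1.27 ± 0.74 within F and 0.75 ± 0.63 within M (edgeR adjusted p = 0.985 and 0.585). The third set gave -0.57 ± 0.3 (adjusted p = 0.673). F minus M over all arms of the Apc set was -0.88 ± 0.39 (adjusted p = 0.313).

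Gcg and Cck moved together across the 18 Apc libraries, with Pearson's r = 0.754 (permutation p = 0.00039) and Spearman's rho = 0.725 (permutation p = 0.00101) of log2(CPM + 0.1). Adjusted over 79 member pairs, these were 0.0036 and 0.0114. No correlation is given for a gene whose values in a set fell into 2 clusters, with a gap of at least 33.3% of their log2 range and 3 or more libraries on each side. This left out Nts in the Apc set, Insl5 and Neurod1 in the AOM set, and Nts, Chga, Chgb and Tph1 in the third set. Without the 2 libraries farthest from the median of Gcg, r was 0.797, and over deviations from group means it was 0.705. In the AOM set r was 0.761 (n = 11, permutation p = 0.00795, adjusted p = 0.046) and in the third set -0.224 (n = 8, exact permutation p = 0.569). The AOM pair did not pass with Spearman's rho (0.782, permutation adjusted p = 0.0505). Without the 2 libraries farthest from the median its r was 0.75 and did not pass either (permutation adjusted p = 0.174). Both genes also followed the mean level of 7 goblet cell markers in the Apc set, with r of 0.744 and 0.76 and permutation p of 0.00056 and 0.00046 (adjusted p = 0.0298 for each over 178 relations of members with lists, chosen after the data were seen). The Spearman values were 0.775 and 0.779 with adjusted p of 0.0276, and without the 2 libraries farthest from the median r was 0.685 and 0.812. The relation was not seen in the other sets. For Gcg and Cck r was 0.0477 and -0.106 in the AOM set (permutation p = 0.891 and 0.759). In the third set it was -0.558 and -0.246 (exact permutation p = 0.151 and 0.585). Cck also had r = -0.704 with the mean level of 8 distal colon markers, mainly Hox genes, in the Apc set (permutation adjusted p = 0.0383). Its rho was -0.742 (adjusted p = 0.0386), and r of Gcg was -0.546 (adjusted p = 0.134). In the AOM set r was -0.606 for Cck and -0.223 for Gcg, and in the third set 0.00349 and 0.152. The part of gut position in the Gcg and Cck values was not tested. Ffar2, a receptor for short-chain fatty acids, was the gene most like Cck in the Apc set of 15766 compared (Spearman's rho 0.957).

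The promoters of Gcg and Cck are shown because the 2 transcripts moved together, with capitals marking CAGATG, an E-box sequence of the kind that factors related to Neurod1 can bind, and the TATAAA of Gcg. Both are 250 bases up to the transcript start, from RefSeq on GRCm38.p6, minus strand, at chr2:62483654-62483903 (Gcg) and chr9:121495695-121495944 (Cck).
Gcg: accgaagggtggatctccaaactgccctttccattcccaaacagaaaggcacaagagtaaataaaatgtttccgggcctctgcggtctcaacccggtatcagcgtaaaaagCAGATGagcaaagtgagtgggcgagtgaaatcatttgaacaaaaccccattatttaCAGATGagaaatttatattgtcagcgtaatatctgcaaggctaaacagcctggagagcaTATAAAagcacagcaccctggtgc
Cck: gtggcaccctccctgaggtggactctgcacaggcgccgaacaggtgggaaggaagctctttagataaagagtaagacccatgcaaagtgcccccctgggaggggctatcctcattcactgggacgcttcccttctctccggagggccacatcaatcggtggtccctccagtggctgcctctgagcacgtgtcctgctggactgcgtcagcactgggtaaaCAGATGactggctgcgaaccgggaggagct
CAGATG on either strand was found in such windows of Gcg, Cck and Insl5 among the 10 genes, and in 14.4% of 32851 RefSeq windows of this length. TATAAA on the strand of the gene was found in 7.59% of windows.

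Nts, the precursor of neurotensin, stood apart in how it was spread over the Apc libraries. It was at 20.5, 27.7 and 0.406 CPM in black rice F, 0.255, 0.101 and 0.607 CPM in black rice M, 47.3, 40.2 and 0.246 CPM in control F, and 0.508, 0.533 and 96.8 CPM in control M. WT libraries were at 5.96, 0.166 and 52.9 CPM in F and 0.15, 0.133 and 0.446 CPM in M. The values fell into 2 clusters, 11 libraries at or below 0.607 CPM and 7 libraries at or above 5.96 CPM, and each arm had libraries in both. Of the 7 high libraries, 6 were coded F, and the other was control M replicate 3.

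The diet difference of Nts in the Apc set followed that single library. Black rice minus control was -3.74 ± 1.49 (log2, SE; edgeR adjusted p = 0.424) and -0.79 without control M replicate 3. Within M it was -6.59 ± 2.42 (adjusted p = 0.467 by edgeR and 0.0465 by DESeq2) and -0.69 without it. Control minus WT was 3.77 ± 1.52 (adjusted p = 0.999) and 0.82 without it. F minus M was 3.88 ± 1.25 (adjusted p = 0.188 by edgeR and 0.0176 by DESeq2), between 2.96 and 5.85 when single libraries were left out. In the AOM set F minus M of Nts had the other sign, at -0.93 ± 0.98 (edgeR adjusted p = 0.823).

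Insl5, the relaxin-family peptide of colonic L cells, had its lowest values in libraries with much Nts, but not every library with much Nts had little of it. In the Apc set it was at 32.5, 31.7 and 142 CPM in black rice F, 115, 95.4 and 78.6 CPM in black rice M, 2.74, 105 and 112 CPM in control F, and 93.5, 231 and 5.14 CPM in control M. WT libraries were at 68.3, 143 and 66.8 CPM in F and 141, 119 and 103 CPM in M. Black rice minus control was -0.13 ± 0.74 (log2, SE; edgeR adjusted p = 0.963). The lowest 2 values, control F replicate 1 and control M replicate 3, belong to libraries with 47.3 and 96.8 CPM of Nts. WT F replicate 3 and control F replicate 2, with 52.9 and 40.2 CPM of Nts, had 66.8 and 105 CPM of Insl5. Over the 11 libraries with little Nts, Insl5 lay between 78.6 and 231 CPM, and over the other 7 between 2.74 and 105 CPM. Because Nts forms clusters, no correlation over all 18 libraries is given. Within them Pearson's r was -0.0158 (n = 11, permutation p = 0.966) and -0.492 (n = 7, exact permutation p = 0.267), and Spearman's rho was -0.182 and -0.429 (permutation p = 0.594 and 0.354).

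Nts also fell into 2 clusters in the third set, 5 libraries at or below 16.5 CPM and 3 at or above 38.6 CPM. Nts was at 63.4, 38.6, 8.16 and 16.5 CPM in black rice and 15.9, 13.7, 5.71 and 53.5 CPM in control. Insl5 was at 4.73, 10.03, 27.6 and 18.2 CPM in black rice and 17.3, 32.9, 40.2 and 5.4 CPM in control. The 3 libraries with the most Nts had the least Insl5, at 4.73, 5.4 and 10.03 CPM against 17.3 to 40.2 CPM in the other 5. Neither cluster holds 6 libraries, so no correlation was taken within them. Because of the clusters, none is given over all libraries of the set. Diet groups overlapped for both genes, with black rice minus control of 0.49 ± 0.74 for Nts (log2, SE; edgeR adjusted p = 0.894) and -0.73 ± 0.63 for Insl5 (adjusted p = 0.795).

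Among AOM libraries, black rice M replicates 1 and 2 and control M replicate 1 had Insl5 of 2.39, 1.25 and 3.14 CPM, and the other 8 lay between 27.9 and 111 CPM. Nts was at 32.8, 10.1 and 6.1 CPM in those 3 and between 0.236 and 16.03 CPM in the other 8. Within M, Nts was higher in every black rice library (32.8, 10.1 and 7.88 CPM) than in any control library (6.1, 1.39 and 0.236 CPM), with a difference of 2.7 ± 1.35 (log2, SE; edgeR adjusted p = 0.386). Within F it was -1.28 ± 1.49 (adjusted p = 0.985), -3.05 without black rice F replicate 2 and 1.14 without control F replicate 2, and the difference between codes was -3.98 ± 2.04 (adjusted p = 0.398). Insl5 black rice minus control was -1.33 ± 0.84 (adjusted p = 1), -2.47 without black rice M replicate 3 and -0.93 without control M replicate 3. Over the 8 libraries with more Insl5, its r with Nts was -0.493 (exact permutation p = 0.21) and rho -0.524 (exact permutation p = 0.197).

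Markers of small intestinal enterocytes were higher in the libraries with much Nts. The 11 markers, among them Fabp6 and Slc10a2 of ileal bile acid uptake and the brush border enzyme Sis, had a mean log2(CPM + 0.1) of 2.76 to 3.58 in the 7 Apc libraries with high Nts and of 0.763 to 1.88 in the other 11, without overlap. Within these clusters Nts and the mean had Pearson's r of 0.0599 (n = 11, permutation p = 0.854, adjusted p = 0.966) and 0.725 (n = 7, exact permutation p = 0.0476, adjusted p = 0.191 over 8 relations within clusters), and Spearman's rho of 0 and 0.5 (permutation p = 1 and 0.267). Insl5 and the mean had r = -0.687 over the 18 libraries (permutation p = 0.00029, adjusted p = 0.0298) and rho = -0.598 (permutation p = 0.0107, adjusted p = 0.136), and r was -0.64 without the 2 libraries farthest from the median. The gap in this mean between the 11 and the 7 libraries was 31.2% of its range, just under the share at which no correlation is given. Their summed level lay between 134 and 1128 CPM in black rice, 168 and 834 CPM in control and 182 and 852 CPM in WT. Over the 18 libraries Fabp6 ran from 1.81 to 299 CPM, Slc10a2 from 0.748 to 292 CPM and Sis from 0.547 to 78.1 CPM. Fabp1 and Apoa4, abundant in proximal small intestine, reached at most 1.57 and 0.485 CPM, and Lct was at 0 in 1 library.

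In the third set the 3 libraries with the most Nts had enterocyte means of 2.7 to 2.9 and the other 5 had 1.15 to 1.5. The 3 AOM libraries with the least Insl5 had 2.84, 2.51 and 4.04, and the other 8 lay between 0.637 and 2.66, so these ranges overlapped. Markers of distal colon position, mainly Hox genes, were not as clearly divided in the Apc set: their mean was 1.01 to 3.83 in the libraries with high Nts and 1.7 to 4.45 in the others. The part of gut position or dissection in the Nts and Insl5 values was not tested.

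**Figure D3:**
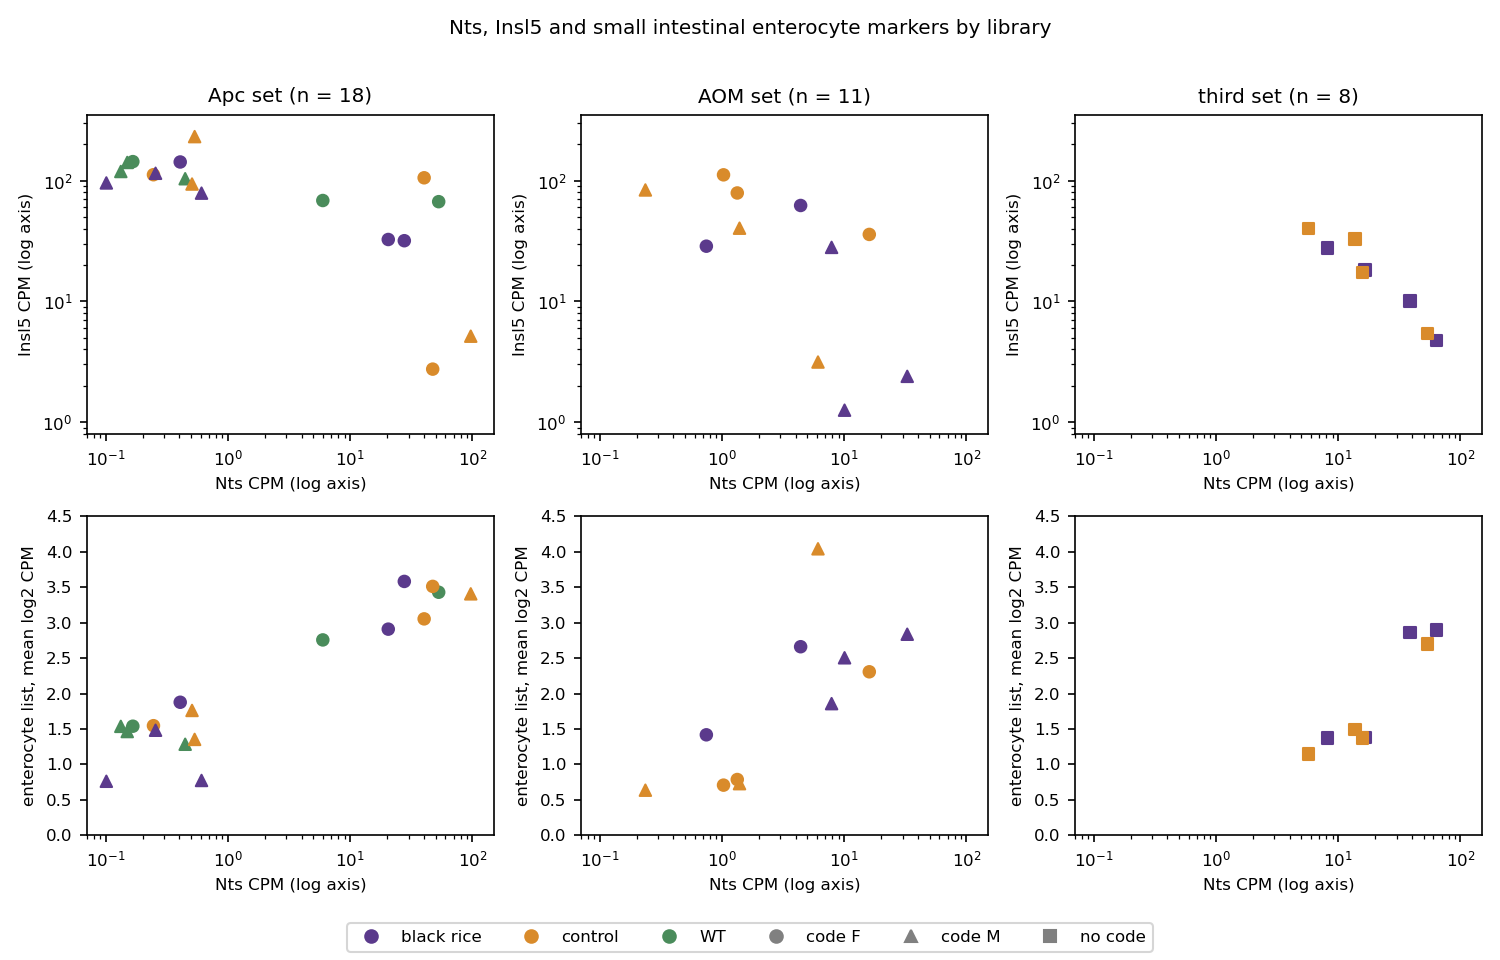
Nts (x, CPM on a log axis) against Insl5 (top, CPM on a log axis) and against the mean log2(CPM + 0.1) of 11 small intestinal enterocyte markers (bottom). Each point is a library, coloured by arm and shaped by code. Libraries with Nts at or above 5.96 CPM in the Apc set have enterocyte means of 2.76 or more.

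Stretches of the Nts and Insl5 promoters are shown because these 2 genes had the highest ratios of highest to lowest library among the 10 in each set. They run up to the start of the GENCODE gene on GRCm38, on the minus strand, from RefSeq windows of GRCm38.p6, at chr10:102490487-102490668 (Nts, 182 bases) and chr4:103026843-103026978 (Insl5, 136 bases), with capitals marking TGAGTCA, an AP-1 motif, in Nts and CAGATG in Insl5.
Nts: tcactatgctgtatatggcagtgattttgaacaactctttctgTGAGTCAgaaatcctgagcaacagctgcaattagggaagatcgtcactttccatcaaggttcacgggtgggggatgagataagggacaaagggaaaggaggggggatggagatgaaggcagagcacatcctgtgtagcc
Insl5: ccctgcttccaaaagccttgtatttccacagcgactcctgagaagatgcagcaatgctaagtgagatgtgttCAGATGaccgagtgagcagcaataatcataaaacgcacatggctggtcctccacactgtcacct
TGAGTCA on either strand was found in Nts among the 10 genes and in 4.46% of all windows. TGACGTCA, the cAMP response element, was found in the windows of Chgb and Sst and in 1.55% of all windows.

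The genes of serotonin and secretory granules formed the other pattern, which Pyy shared in the AOM set and Neurod1 in part in the Apc set. Chgb and Tph1, the rate-limiting enzyme of serotonin synthesis in the gut, had Pearson's r of 0.86 in the Apc set (n = 18, permutation p = 1e-05, the smallest the resampling can give) and 0.964 in the AOM set (n = 11, permutation p = 2e-05). Spearman's rho was 0.888 and 0.891, with permutation p of 2e-05 and 0.00049, and the adjusted p of r was 0.000263 and 0.000395. Without the 2 libraries farthest from the median of Chgb, r was 0.864 and 0.904. Chga and Chgb had r of 0.857 in the Apc set and 0.97 in the AOM set (adjusted p = 0.000263 for each, permutation). In the third set Chga, Chgb and Tph1 each fell into 2 clusters of 3 to 5 libraries, so no correlation of them is given there. Pyy in the AOM set had r of 0.836 with Chga, 0.886 with Chgb and 0.821 with Tph1 (permutation adjusted p = 0.0121, 0.0036 and 0.0156). In the Apc set these r were -0.146, -0.504 and -0.404, and none passed. Neurod1 in the Apc set had r of 0.743 with Chga and 0.604 with Tph1 (permutation adjusted p = 0.0036 and 0.046). Of 79 pairs, 14 passed the threshold, 13 with a positive and 1 with a negative r, the latter being Insl5 with Neurod1 in the third set (r = -0.883, n = 8, exact permutation p = 0.00583, adjusted p = 0.0384). It did not pass with Spearman's rho (-0.857, adjusted p = 0.0705) or without the 2 libraries farthest from the median (adjusted p = 0.174). In the Apc set r was -0.139. In the third set the mean of 10 smooth muscle markers had r of -0.884 with Neurod1 and 0.764 with Insl5 (permutation adjusted p = 0.0298 and 0.134). The part of smooth muscle in this pair was not tested.

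**Figure D4:**
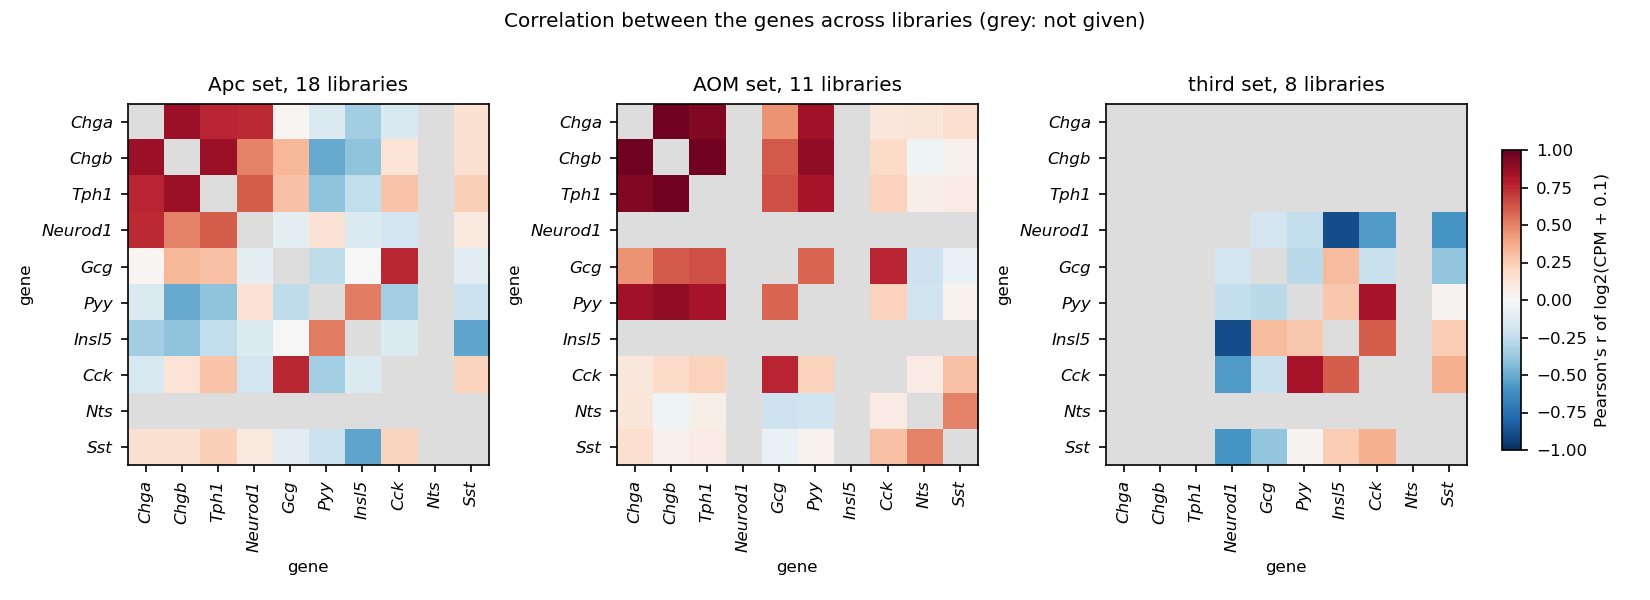
Pearson's r between log2(CPM + 0.1) of each pair of genes across the libraries of a set (18, 11 and 8), in colour from -1 to 1. Grey marks the diagonal and pairs with a gene whose values form 2 clusters in that set. Chga, Chgb and Tph1 are red with each other in the Apc and AOM sets.

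Chgb was at 188, 253 and 112 CPM in black rice F of the Apc set, 92.3, 122 and 129 CPM in black rice M, 105, 159 and 92.8 CPM in control F, and 61.4, 114 and 292 CPM in control M. WT libraries were at 93.1, 117 and 195 CPM in F and 107, 146 and 155 CPM in M. The highest library was again control M replicate 3, and the arms overlapped. In the third set Chgb was at 99.8, 102, 52.1 and 52.3 CPM in black rice and 66.2, 55.4, 60.2 and 86.1 CPM in control. Black rice replicates 1 and 2, with the most Chgb, were also highest for Tph1, at 20.7 and 24.5 CPM against 9.11 to 17.4 CPM in the other 6 libraries. Black rice minus control was 0.11 ± 0.32 for Chgb, -0.1 ± 0.24 for Chga and 0.43 ± 0.33 for Tph1 in the Apc set (log2, SE), with edgeR adjusted p of 0.925, 0.913 and 0.677. In Apc F libraries Tph1 was at 46.7, 34 and 18.2 CPM in black rice and 15.6, 20.3 and 13.2 CPM in control, a difference of 1.01 ± 0.47 (adjusted p = 0.488). In AOM libraries the 3 differences were 0.04 ± 0.4, 0.19 ± 0.37 and 0.24 ± 0.46, and in the third set 0.15 ± 0.26, -0.09 ± 0.24 and 0.2 ± 0.37, with adjusted p of at least 0.913.

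Over the 18 Apc libraries the gene most like Chgb, outside the 10, was Lmx1a (Spearman's rho 0.872), and it was also the gene most like Tph1 (0.833). Lmx1a encodes a transcription factor of enterochromaffin cells. Slc18a1, the vesicular monoamine transporter, was the second for both, with rho of 0.827 and 0.744. The genes most like other members were Gstm6 for Insl5 (0.926), Arhgdig for Sst (0.897) and Ebpl for Pyy (0.895). For Gcg, Neurod1 and Chga they were Smim14 (0.88), Sec62 (0.864) and Pbld1 (0.837). No such gene is given for Nts, whose values form clusters in this set.

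Neurod1, the transcription factor that acts late in enteroendocrine differentiation, had the smallest ratio of highest to lowest library in the Apc and AOM sets. It lay between 3.68 and 9.4 CPM in the Apc set, 1.27 and 4.08 CPM in the AOM set and 1.92 and 4.04 CPM in the third set. Black rice minus control was -0.04 ± 0.21, -0.1 ± 0.36 and 0 ± 0.29 (log2, SE), with edgeR adjusted p of 0.96, 1 and 0.998. The interval in the Apc set ran from -0.48 to 0.4. In the AOM set Neurod1 fell into 2 clusters. Over the 8 libraries with less of it, its r with the mean of 18 enteroendocrine transcription factors was 0.753 (exact permutation p = 0.0309, adjusted p = 0.191) and rho was 0.762 (exact permutation p = 0.0368, adjusted p = 0.294).

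Sst was at 11.5 to 37.9 CPM in black rice, 17.7 to 56.6 CPM in control and 22.7 to 64.4 CPM in WT libraries of the Apc set. Among AOM M libraries it was at 26.9, 225 and 47.5 CPM in black rice and 16.5, 46.4 and 12.5 CPM in control. Black rice replicate 2 was far above all others, and its 13 enteric neuron markers summed to 389 CPM, the highest of the AOM set. The part of neurons in that value was not tested. The difference within M was 2.13 ± 0.81 (log2, SE; edgeR adjusted p = 0.343), and over both codes it was 0.8 ± 0.58 (adjusted p = 1). Without that library these were 0.57 and 0.02. Black rice minus control was -0.43 ± 0.37 in the Apc set and 0.3 ± 0.28 in the third set (adjusted p = 0.71 and 0.811). Across libraries, Sst and the mean level of the 13 neuron markers had r of 0.569 in the Apc, 0.736 in the AOM and 0.846 in the third set. None passed (permutation adjusted p = 0.124, 0.115 and 0.102), and without the 2 libraries farthest from the median r was 0.273, 0.56 and 0.481.

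Between control and WT libraries of the Apc set, which differ in the label and in whether a diet is given, 0 of 10 members were called. Control minus WT ran from -0.32 ± 0.33 for Tph1 to 0.39 ± 0.28 for Pyy among the other 9 (log2, SE), with an edgeR adjusted p of 0.999 for each. Insl5 was -0.3 ± 0.74 with an interval from -1.86 to 1.27, so a change of either sign is within its error. Black rice minus WT, which shares the WT libraries with that comparison, ran from -0.54 ± 0.37 for Sst to 0.11 ± 0.33 for Tph1, with adjusted p of at least 0.675. Nts in black rice minus WT was 0.03 ± 1.45 (adjusted p = 0.996). F minus M in the AOM set was largest for Insl5, at 1.48 ± 0.81 (63.4 ± 33.6 against 26.4 ± 32.3 CPM, SD, n = 5 and 6; adjusted p = 0.642), and in the Apc set Insl5 was -0.65 ± 0.6 (adjusted p = 0.613).

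Other genes of the enteroendocrine system, in 6 lists of 7 to 24 genes, were likewise without a call for diet. The lists were transcription factors, other gut hormones, prohormone processing and granules, serotonin handling, nutrient and microbial sensors, and receptors of the hormones, with 18, 8, 19, 7, 16 and 21 genes tested in the Apc set, and 0 passed in either direction. The granule list had 15 of 19 genes higher in black rice in the Apc set, 16 of 19 in the AOM set and 17 of 19 in the third set, with medians of 0.19, 0.36 and 0.24 (log2). Over all genes tested, 49.1%, 46.5% and 51.3% were higher, with medians of -0.01, -0.02 and 0.01. In control minus WT of the Apc set only 2 of 19 were higher, with a median of -0.34, a comparison that shares the control libraries with the first. The other lists did not all lean this way. For diet, with the 3 sets in the order above, 12, 14 and 11 of 18 transcription factors were lower in black rice. Their medians were -0.09, -0.17 and -0.08. Serotonin handling had 5, 4 and 3 of 7 genes lower. Other gut hormones had 5, 6 and 5 of 8 higher, and sensors 10, 9 and 5 of 16. Receptors had 10 of 21, 11 of 21 and 16 of 20 higher. Neurons also transcribe granule genes. Of 13 enteric neuron markers, 12 were higher in black rice in the Apc set, 12 in the AOM set and 10 in the third set, with medians of 0.18, 0.4 and 0.38, and 0 of 13 were higher in control minus WT, with a median of -0.47. They summed to 127 to 236, 125 to 163 and 135 to 277 CPM in Apc black rice, control and WT. The sums were 42.8 to 389 CPM in AOM black rice and 110 to 270 CPM in control, and 188 to 412 and 95.6 to 328 CPM in the third set. All 10 smooth muscle markers were also higher in Apc black rice (median 0.45), and 4 of 10 in each of the other sets. The part of these cells in the granule list was not tested.

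Some of the genes with small p for diet in these lists are given here with their values, and 0 of them passed. Npy4r, a receptor of pancreatic polypeptide, gave 0.76 ± 0.14 in the Apc set (log2, SE; edgeR adjusted p = 0.118) and -0.01 ± 0.41 in the AOM set (adjusted p = 1). Rab3c, a vesicle GTPase, gave 0.74 ± 0.17 in the Apc set (adjusted p = 0.166) and 1.06 ± 0.26 in the third set (adjusted p = 0.499). Nmu, the neuropeptide neuromedin U, gave 1.51 ± 0.38 in the Apc set (adjusted p = 0.217) and 0 ± 0.4 in the third set (adjusted p = 0.998). Piezo2, a mechanically gated channel, gave 0.77 ± 0.23 in the Apc set (adjusted p = 0.307), and Ffar4, a receptor of long-chain fatty acids, -0.72 ± 0.22 (adjusted p = 0.313). Glp1r and Npy2r, receptors of glucagon-like peptide and of peptide YY, gave 0.78 ± 0.2 and 0.85 ± 0.21 in the third set (adjusted p = 0.499 for each). Pcsk1, the convertase that cuts the precursor of glucagon-like peptide, gave -0.03 ± 0.4, 0.58 ± 0.2 and 0.57 ± 0.18 in the Apc set, the AOM set and the third set (adjusted p = 0.986, 1 and 0.545). Of the 11 other gut hormones 8 had enough counts to be tested in the Apc set, and Gip and Gast, hormones of duodenum and stomach, did not exceed 0.195 and 0.0715 CPM in any library.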

How the data were processed

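RNA from 38 mouse intestinal libraries was captured with oligo(dT) beads and sequenced on the DNBSEQ platform, per the labels' protocols. The authors deposited raw read counts per gene. Per the file headers, exon reads were counted with featureCounts 2.0.1 and the GRCm39 annotation of Ensembl 104 in the AOM set and the third set. For the Apc set no header gives the command. The submitters' processing notes also name FastQC, fastp, HISAT2, SAMtools and Subread, without versions. The featureCounts commands in those headers set no strand option and the Apc set gives none, so reads of overlapping antisense genes cannot be told apart. A symbol was found for 52083 of 55416 identifiers, and 0 columns were left unmapped.

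The 3 sets were fitted one by one in R 4.3.3, with edgeR 4.0.16 (filterByExpr, TMM factors, two-sided quasi-likelihood tests of group means, Benjamini-Hochberg adjustment over all genes tested, threshold 0.05). Contrasts over both codes are means of the F and M differences. AOM black rice F replicate 3 was left out. The fit was tested on simulated data. CPM used library totals, and correlations used log2(CPM + 0.1), with 100000 permutations or all permutations for 8 or fewer libraries. By a rule made after the data were seen, none is given for values with a gap of at least 33.3% of their log2 range and 3 or more libraries on each side. Genes named outside the 10 came from the 3 most alike to each in the Apc set, among 15766 genes averaging 0 or more in log2(CPM + 0.1), from up to 2 per list with the smallest p, and from markers. Alternatives were DESeq2 1.42.0, RLE size factors, a minimum of 10 counts in place of the filter, the compared groups alone, a replicate block, an epithelium covariate, all 12 AOM libraries, and leaving out each library. Within groups, 0 of 18, 12 and 12 library pairs held identical counts. The members and lists were chosen with earlier results of these data known. Promoters were matched by symbol to RefSeq windows, for all 10 genes. Their coordinates, on GRCm38, come from another build than the counts.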

Additional observations from a re-analysis of the deposited data

Results flagged for a closer look

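Of 70 groups of 4 to 6 libraries (10 genes by arm and set), 6 had a highest library set apart from the rest by Dixon's test at 95%, and chance flags about 1 in 20 groups. In the Apc set these were Neurod1 in control M replicate 3 (9.4 CPM, next 5.7), Chga in WT F replicate 3 (131 CPM, next 79) and Nts in WT F replicate 3 (52.9 CPM, next 5.96). In the AOM set they were Sst in black rice M replicate 2 (225 CPM, next 47.5) and Nts in control F replicate 2 (16.03 CPM, next 6.1). In the third set it was Gcg in black rice replicate 3 (76.1 CPM, next 64.1).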

How the results depend on the processing

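No member was called in any comparison by edgeR under other size factors, filters, groups, covariate or block, with all 12 AOM libraries, or without any single library. DESeq2 called 1 member for Apc diet within M (Nts, -6.6, adjusted p = 0.0465) and 2 for Apc F minus M (Gcg, -0.77, adjusted p = 0.0461, and Nts, 3.89, adjusted p = 0.0176), against 0. Over all genes DESeq2 called more than edgeR in each of the 13 comparisons: 170, 174, 141 and 106 for Apc diet, within F, within M and their difference, 24, 66 and 512 for control against WT, black rice against WT and F against M, 10, 3, 226, 113 and 77 for the AOM comparisons in the same order without WT, and 119 in the third set. By edgeR, Apc diet had 6 calls with the minimum of 10 counts and 1 with the compared groups alone, against 3. Diet within F had 2 with that minimum and 14 with the epithelium covariate, against 0, and diet within M had 0 with the compared groups alone, against 7. Black rice against WT had 0 with RLE factors, the compared groups alone or the covariate, against 3. Leaving out 1 library gave 1 to 6, 0 to 4, 0 to 2 and 0 to 7 calls for Apc diet, within F, within M and their difference, 0 to 2 for black rice against WT, 10 to 67 for Apc F minus M and 0 to 1 in the third set.

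The direction of 176 of 2080 values changed under an alternative, 141 of them among 1300 values without 1 library and 17 of 130 with the epithelium covariate. Of the 130 differences, 67 changed direction under at least 1 alternative, 62 of them on leaving out 1 library. Nts in the Apc diet comparison was -0.79 without control M replicate 3. Of 79 pairs, 14 passed, and 5 passed without the 2 libraries farthest from the median, which leaves 6 libraries in the third set. With Spearman's rho 9 passed, and with no pairs left out for clusters 23 of 135 passed, both added after the data were seen.

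The labels do not say what a shared replicate number means. Same-numbered libraries of different groups had correlations of their deviations from -0.586 to 0.489 (median -0.0761) in the Apc set, -0.324 to 0.406 (median 0.117) in the AOM set and -0.636 to 0.494 (median -0.372) in the third set. For different numbers the medians were 0.0234, -0.0409 and 0.073, so only the AOM set had a higher median for the same number. In the 3 sets 8 of 18, 8 of 11 and 2 of 8 libraries correlated best with their own number. A shared number may thus matter in the AOM set, and the main fit did not use it. With the replicate block 0 members were called and 7 of 130 directions changed. The block gave 203 calls over all genes for the AOM difference between codes, against 0, and 2, 0, 0 and 10 for Apc diet, diet within M, black rice against WT and F against M, against 3, 7, 3 and 16.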
